A study of Homo sapiens with 32 samples.

Results

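The inner mitochondrial membrane carries the respiratory chain, a series of protein complexes that pass electrons from NADH and succinate to oxygen and use the freed energy to pump protons, which ATP synthase (complex V) then uses to make ATP. Most of the subunits are encoded in the nucleus, made in the cytosol and imported. Assembly factors help to build the complexes but are not part of them: they insert copper, iron-sulfur clusters or flavin, or hold a half-made subunit. Nuclear respiratory factor 1 (NRF1), the ETS factor GABP and YY1 are known regulators of many of these genes.

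The genes described here are those whose array feature carried a symbol beginning with NDUF, SDHA to SDHD, UQCR, COX with digits, or ATP5. These prefixes matched 41 symbols. After 1 pseudogene and 3 non-coding RNAs were left out, 37 protein-coding genes remained of 14884 genes with a named feature. Of the 53617 features on the array, 37519 carried no gene name in the annotation used here. None of the 41 listed nuclear subunits of complexes I and II had a named feature, and they were not analysed here. The NDUF and SDH symbols that were measured belong to assembly factors. The label of respiratory chain subunits therefore holds for at most 24 of the 37 genes, called the subunits here. These 24 are 5 genes of complex III, 10 common genes of complex IV, 7 tissue isoforms and relatives of complex IV (COX7A2L being a relative), and 2 genes of ATP synthase. The other 13 are 12 assembly factors and ATP5IF1, the inhibitor protein of ATP synthase.

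The study used K-562, a human line from chronic myeloid leukaemia that carries the BCR-ABL1 fusion kinase, the target of imatinib and nilotinib. Naive cells never selected with a drug formed 2 sets, S and K, whose letters the labels do not explain. Resistant lines had been selected by raising the drug in steps to 0.5 µM imatinib (called low imatinib here), 2 µM imatinib (high imatinib) or 0.1 µM nilotinib, with 2 lines of each. Whether drug was present at harvest was not clear from the labels, whose description of the culture names a medium with neither drug. Each of the 8 sets was hybridised to 4 technical replicate arrays, 32 in all. A level is given on a log2 scale as deposited, so that a difference of 1 is a doubling. The set mean was taken as 1 replicate, which leaves n = 2 in each group. The SD beside a set mean is over its 4 arrays and covers technical spread only. How far the 2 lines of a resistance arose independently was not stated. In whole-culture RNA, a shift in the mix of cells and a shift in RNA per cell cannot be told apart.

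Array medians over all features lay between 5.85 and 6.11, and no 2 arrays were identical. Arrays of 1 set also differed among themselves along a common direction that held 16.8% of the variance within sets. Mean scores on this technical axis separated the naive sets (-20.76 and -25.09) from the resistant lines. The mean scores were 6.09 and 5.69 in low imatinib, -2.13 and 2.73 in high imatinib and 21.19 and 12.28 in nilotinib. Single arrays overlapped: those of naive K ran from -47.1 to -8.1 and those of low imatinib line 1 from -15.2 to 15.5. Of the 37 genes, 32 loaded on the positive side (86.5%, against 50.2% of all genes), including all 12 assembly factors and all 10 common complex IV genes, but 2 of the 7 complex IV isoforms and relatives. Taking the axis out moved the median difference between resistant and naive cells over the 37 genes from 0.24 to 0.018. The axis and the groups cannot be fully told apart. Of the erythroid markers of K-562, 4 of 16 had a named feature. Their mean level was 7.62 and 7.85 in the naive sets and 7.9 to 8.63 in the resistant lines, while that of 7 monocyte and granulocyte markers was 6.19 and 6.38 against 5.84 to 6.26. The mean over 2 lymphoid markers was 6.98 and 7.19 against 6.66 to 6.86, and that over 5 epithelial and fibroblast markers was 5.93 and 5.94 against 5.19 to 5.98. The part of these markers in the results below was not tested.

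Start-site windows from RefSeq (GRCh38.p14), running from 250 bases before to 50 bases after each gene's start, were found for 31 of the 37 genes. They were searched on both strands for GCGCANGCG (NRF1), CCGGAAG (the ETS core bound by GABP) and AAGATGGC (YY1). The NRF1 letters lay in 8 windows (25.8%), against 8.05% of 27305 RefSeq windows and 11.8% of the 9707 windows of measured coding genes. The GABP letters lay in 10 (32.3%, against 10.7% and 15.6%) and the YY1 letters in 1 (3.23%, against 3.03% and 4.34%). The NRF1 letters were in 4 of 11 windows of assembly factors and 1 of 9 of complex IV. The GABP letters were in 3 of 11 and 5 of 9. None of the 5 windows of complex IV isoforms and relatives held the GABP letters. A match is a description of the sequence and says nothing of binding in these cells. The 4 windows below belong to genes whose values carry the results. Capitals mark the motif letters on either strand, overlapping matches merged. COX8A (chr11:63974370-63974669, plus strand) has the GABP letters in the last bases before its start. COX6A1 (chr12:120437863-120438162, plus strand) has the NRF1 letters far upstream and the GABP letters near its start. ATP5MJ (chr14:103921480-103921779, minus strand) has the NRF1 letters alone. SDHAF3 (chr7:97117448-97117747, plus strand) has the NRF1 letters at 2 places and the GABP letters at 1.
COX8A: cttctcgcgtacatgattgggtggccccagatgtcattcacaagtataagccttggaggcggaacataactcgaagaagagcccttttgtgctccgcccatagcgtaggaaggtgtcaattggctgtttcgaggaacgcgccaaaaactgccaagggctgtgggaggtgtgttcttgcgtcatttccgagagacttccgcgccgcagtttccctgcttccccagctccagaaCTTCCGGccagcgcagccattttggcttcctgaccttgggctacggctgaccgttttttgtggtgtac
COX6A1: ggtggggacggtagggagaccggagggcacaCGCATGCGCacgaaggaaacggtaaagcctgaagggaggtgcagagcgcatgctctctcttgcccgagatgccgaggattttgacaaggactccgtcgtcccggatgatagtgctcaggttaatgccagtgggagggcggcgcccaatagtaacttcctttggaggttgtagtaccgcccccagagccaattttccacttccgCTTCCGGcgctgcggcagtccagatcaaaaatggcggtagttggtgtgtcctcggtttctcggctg
ATP5MJ: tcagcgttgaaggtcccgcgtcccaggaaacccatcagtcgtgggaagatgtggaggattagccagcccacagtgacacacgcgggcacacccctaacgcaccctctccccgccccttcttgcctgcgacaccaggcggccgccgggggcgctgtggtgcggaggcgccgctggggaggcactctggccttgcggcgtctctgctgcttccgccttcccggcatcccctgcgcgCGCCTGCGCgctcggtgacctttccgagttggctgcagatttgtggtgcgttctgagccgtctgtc
SDHAF3: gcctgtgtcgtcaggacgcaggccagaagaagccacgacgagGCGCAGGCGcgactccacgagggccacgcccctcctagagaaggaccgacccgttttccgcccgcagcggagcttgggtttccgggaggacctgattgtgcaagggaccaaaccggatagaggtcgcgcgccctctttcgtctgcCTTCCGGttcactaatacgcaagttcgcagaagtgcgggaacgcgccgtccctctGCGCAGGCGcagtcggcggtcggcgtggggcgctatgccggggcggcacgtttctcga

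Against naive cells, the 37 genes were on the whole somewhat higher in the resistant lines, and no single gene passed the test. Not every line was above both naive sets when levels were taken relative to each gene's own mean. The median was -0.19 in naive S, -0.09 in naive K and -0.14 in high imatinib line 1. In the other lines it lay between 0.00 and 0.11. Over the 24 subunits it was -0.20 in naive S and -0.01 in naive K. It was -0.14 in high imatinib line 1, -0.03 in nilotinib line 2 and 0.07 to 0.10 in the other lines. Over all 6 resistant lines together, the median difference was 0.24 on the log2 scale, against -0.03 over all genes tested, and 26 of 37 genes lay above 0 (70.3%, against 47.6%). By limma on set means, with Benjamini-Hochberg adjustment over 14884 genes, 0 of the 37 passed an adjusted p of 0.05, where 3.72% of all genes did (553 genes). At an unadjusted p under 0.05, 7 genes passed, all higher; this is 18.9% of the 37, against 18.1% of all genes that passed in that direction. Each set was also left out in turn, which leaves 1 set in its group, so only the size of the difference is given. The median over the 37 genes then ran from 0.177 (without naive S) to 0.279 (without high imatinib line 1). It was 0.196 without high imatinib line 2. With every array set to the same median, 3 passed (ATP5MK, SDHAF2 and SDHAF3), where 11.3% of all genes did. In 7 of the 37 genes every resistant line lay above both naive sets (18.9%, against 17.0% of all genes), and in none did every line lie below (0.0%, against 15.9%).

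**Figure D1:**
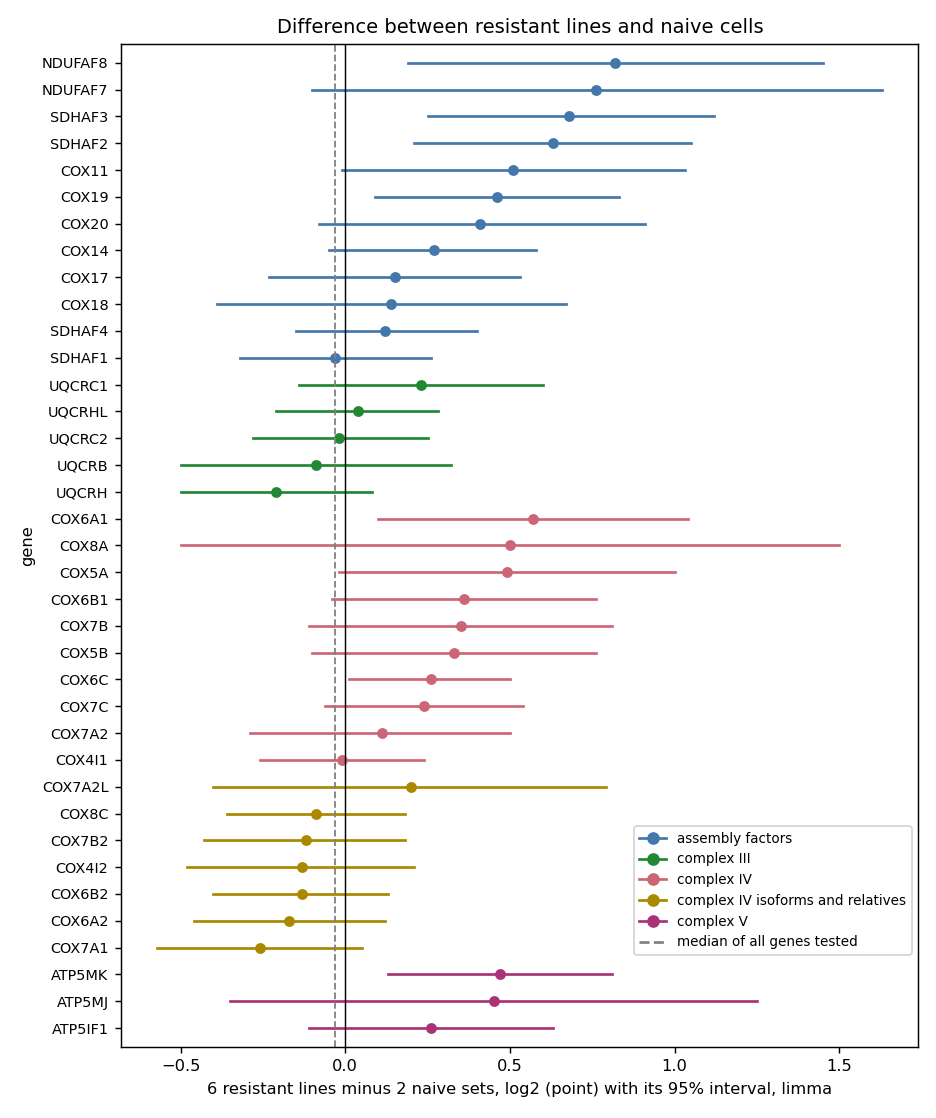
Difference on the log2 scale between the 6 resistant lines and the 2 naive sets for each of the 37 genes (points) with its 95% interval from limma (bars), coloured by complex. Assembly factors, common complex IV genes and complex V lie mostly to the right of 0, and complex III and the complex IV isoforms around or left of it; the dashed line is the median of all genes, -0.03.

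The groups of genes differed in where they lay. The 12 assembly factors had the highest median difference among the groups with over 3 genes, 0.44, with 11 of 12 above 0. The 10 common complex IV genes had a median of 0.34, with 9 of 10 above 0. The 3 complex V genes had 0.45, all above 0. The 5 complex III genes had a median of -0.02, with 2 above 0, which became 0.11 with every array set to the same median, and the 7 complex IV isoforms and relatives had -0.13, with 1 above 0, which became -0.01 under the same setting. With the technical axis taken out, the medians were 0.12, 0.09, 0.24, -0.28 and -0.04 in the same order. No test of a difference between these groups was made.

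**Figure D2:**
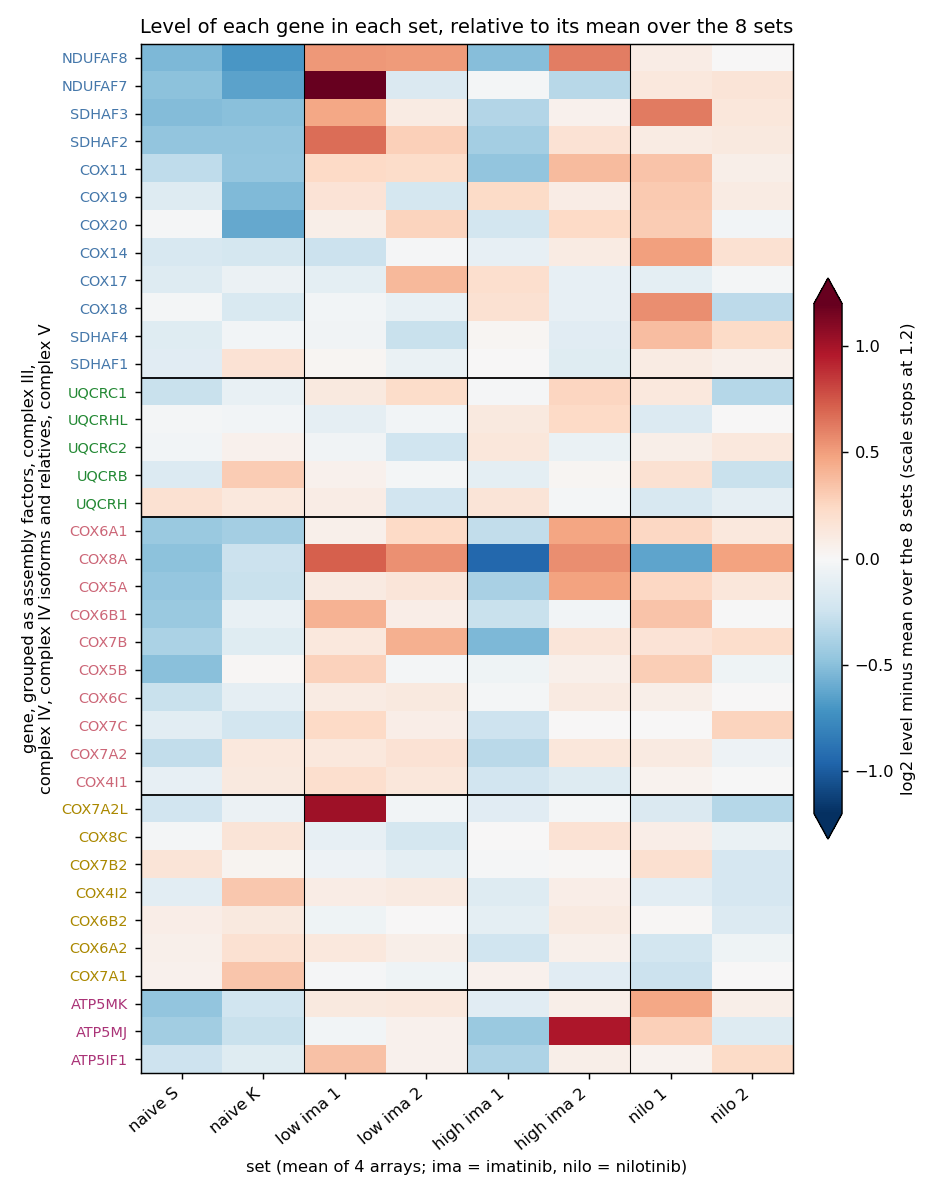
Level of each of the 37 genes in each set (mean of 4 arrays) relative to its own mean over the 8 sets, on the log2 scale. The naive sets are low for most assembly factors and common complex IV genes. High imatinib line 1 shares that for the 10 common complex IV genes, of which 0 lie above their own mean (median -0.28). Single dark cells mark NDUFAF7 and COX7A2L in low imatinib line 1 and ATP5MJ in high imatinib line 2. NDUFAF7 in low imatinib line 1 lies beyond the end of the colour scale.

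Among the assembly factors of complex II, succinate dehydrogenase, SDHAF2 and SDHAF3 came nearest to the threshold. SDHAF3, which protects the iron-sulfur subunit during assembly, had set means of 5.97 ± 0.32 and 5.99 ± 0.33 in naive S and K (SD, n = 4 arrays). They were 6.95 ± 0.19 and 6.59 ± 0.15 in low imatinib, 6.14 ± 0.09 and 6.54 ± 0.07 in high imatinib, and 7.11 ± 0.23 and 6.63 ± 0.37 in nilotinib. All 6 lines lay above both naive sets, high imatinib line 1 by less than the spread between naive arrays. The difference was 0.68 ± 0.18 (SE; adjusted p = 0.0758 by limma). SDHAF2, which helps to attach flavin to the catalytic subunit, was at 7.02 ± 0.09 and 7.02 ± 0.21 in naive cells, 8.16 ± 0.23 and 7.78 ± 0.04 in low imatinib, 7.08 ± 0.11 and 7.66 ± 0.06 in high imatinib, and 7.59 ± 0.11 and 7.61 ± 0.13 in nilotinib. Again only high imatinib line 1 was close to the naive level. The difference was 0.63 ± 0.18 (adjusted p = 0.0831 by limma). SDHAF1 and SDHAF4, the other factors for this complex, had differences of -0.03 ± 0.12 and 0.12 ± 0.12.

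Of the 8 listed assembly factors of complex I, 2 were measured. NDUFAF8, which works with the factor NDUFAF5 on an early assembly intermediate, had the highest difference of the 37 genes, 0.82 ± 0.27 (adjusted p = 0.105 by limma). Its set means were 7.98 ± 0.18 and 7.82 ± 0.30 in naive cells, 9.04 ± 0.27 and 9.03 ± 0.18 in low imatinib, 8.01 ± 0.13 and 9.13 ± 0.01 in high imatinib, and 8.61 ± 0.08 and 8.52 ± 0.23 in nilotinib. High imatinib line 1 was at the naive level and the other 5 lines were above it. NDUFAF7, a methyltransferase that modifies a core subunit of complex I, had a difference of 0.76 ± 0.37 (adjusted p = 0.206 by limma). For this gene 1 line stood far above the rest. That line, low imatinib line 1, was at 9.12 ± 0.13. The naive sets were at 7.22 ± 0.25 and 7.07 ± 0.24. The other resistant lines lay above both, between 7.38 ± 0.16 in high imatinib line 2 and 7.87 ± 0.18 in nilotinib line 2.

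Factors for complex IV, cytochrome c oxidase, had smaller differences above 0 when averaged over the resistant lines, none past the threshold. COX11 in high imatinib line 1 (6.39), COX14 in low imatinib line 1 (6.09) and COX18 in nilotinib line 2 (7.04) were below both naive sets. COX11, which delivers copper to the catalytic core, had a difference of 0.51 ± 0.22. COX19, a partner in copper delivery, had 0.46 ± 0.16, and COX20, a chaperone of the mitochondrially encoded subunit COX2, had 0.41 ± 0.21. COX14, COX17 (the copper chaperone) and COX18 (which helps to insert COX2 in the membrane) had 0.27 ± 0.13, 0.15 ± 0.16 and 0.14 ± 0.22. Their adjusted p-values by limma ran from 0.117 for COX19 to 0.676 for COX18.

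Among the common complex IV genes, COX6A1 was highest against naive cells at 0.57 ± 0.20 (adjusted p = 0.122 by limma). Its naive set means were 11.07 ± 0.09 and 11.11 ± 0.18. The low imatinib lines were at 11.57 ± 0.15 and 11.75 ± 0.08, the high imatinib lines at 11.22 ± 0.12 and 11.99 ± 0.09, and the nilotinib lines at 11.76 ± 0.08 and 11.64 ± 0.15. All 6 resistant lines were above both naive sets, and high imatinib line 1 was again the nearest to them. COX6A1 alone of the 37 had more than 1 named feature, and its dimmer feature gave 0.37 in the same comparison. COX5A, a matrix-side subunit, had 0.49 ± 0.22 (adjusted p = 0.18 by limma). COX8A had 0.50 ± 0.42, with an interval from -0.50 to 1.5 that reflects its spread between lines, described below. COX6B1, COX7B, COX5B, COX6C, COX7C and COX7A2 lay between 0.11 and 0.36. COX4I1, the common form of the subunit that binds ATP, did not follow them: its difference was -0.01 ± 0.11, with a 95% interval from -0.26 to 0.24.

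The tissue isoforms had differences below 0, though the median with their relative COX7A2L was -0.01 with every array set to the same median. Most were dim, with means of 4.07 (COX8C), 4.99 (COX6B2), 5.42 (COX7B2), 5.75 (COX7A1), 5.97 (COX6A2) and 6.67 (COX4I2). Array medians over all features lay between 5.85 and 6.11, and the median difference over every array feature was -0.111. The part of dim signal in these differences was not tested. COX4I2, the lung form that low oxygen induces in some cells, had -0.13 ± 0.15. COX6A2 and COX7A1, the heart and muscle forms, had -0.17 ± 0.12 and -0.26 ± 0.13, and the testis forms COX6B2, COX7B2 and COX8C had -0.13, -0.12 and -0.09. COX7A1 was the lowest of the 37 genes, with set means of 5.81 ± 0.22 and 6.09 ± 0.09 in naive cells and 5.5 ± 0.31 to 5.81 ± 0.12 in the resistant lines (adjusted p = 0.228 by limma). Naive S and high imatinib line 1 had the same mean, so the groups met. COX7A2L, a relative that joins complexes III and IV into supercomplexes, had 0.20 ± 0.25 and is described with the lines.

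In complex III, which passes electrons from coenzyme Q to cytochrome c, UQCRC1 and UQCRC2, the large core proteins on the matrix side, had differences of 0.23 ± 0.16 and -0.02 ± 0.11. UQCRB, which lies at the quinone site, had -0.09 ± 0.17. UQCRH, the hinge protein, had -0.21 ± 0.12 and its near-identical copy UQCRHL 0.04 ± 0.10. Features of such copies, and of genes with processed copies elsewhere in the genome, may share signal, which was not checked. In complex V, ATP5MK, a small membrane subunit, was at 6.83 ± 0.27 and 7.06 ± 0.22 in naive cells and between 7.16 ± 0.06 (high imatinib line 1) and 7.76 ± 0.10 (nilotinib line 1) in resistant lines. All 6 resistant lines were above both naive sets, by 0.47 ± 0.14 on average (adjusted p = 0.0927 by limma). ATP5IF1, which blocks ATP synthase from running in reverse, had 0.26 ± 0.16. ATP5MJ, another small membrane subunit, had 0.45 ± 0.34.

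The 3 resistances were also compared with naive cells one at a time. These comparisons share the same naive sets, so their values are set side by side and not as repeats of each other. By limma on set means none of the 37 genes passed in any of the 3, where the share of all genes called was 0.0% for low imatinib, 0.0% for high imatinib and 0.443% for nilotinib. At an unadjusted p under 0.05, 7 genes passed for low imatinib, 1 for high imatinib and 7 for nilotinib, all of them higher, against 14.8%, 11.1% and 17.8% of all genes. The median difference over the 37 genes was 0.32 for low imatinib, 0.15 for high imatinib and 0.31 for nilotinib, with 25, 27 and 27 genes above 0, against 46.8%, 47.7% and 48.3% of all genes. With the technical axis taken out the medians were 0.061, -0.063 and 0.017. The high imatinib median was 0.001 without its line 2, and the nilotinib median was 0.075 over the subunits only. The 2 lines were each higher than naive S and K in 19, 11 and 18 of the 37 genes (51.4%, 29.7% and 48.6%, against 31.0%, 24.3% and 32.7% of all genes). With only the naive and low imatinib sets in the fit, 6 genes passed for low imatinib (COX11, COX6A1, COX8A, NDUFAF8, SDHAF2 and SDHAF3), where 13.4% of all genes did. Fits of the same kind called 1 of all 14884 genes for high imatinib and 0 for nilotinib.

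In the low imatinib lines the highest differences were 1.19 ± 0.45 for NDUFAF7, 1.14 ± 0.33 for NDUFAF8 and 1.01 ± 0.52 for COX8A, and the smallest adjusted p was that of SDHAF2 (0.95 ± 0.22, adjusted p = 0.0968 by limma). All 10 common complex IV genes were above 0, with a median of 0.43, and in 8 of the 10 each line was above naive S and K (80.0%, against 31.0% of all genes). COX4I1 and COX5A had 0.16 ± 0.13 and 0.49 ± 0.26, UQCRC1 0.34 ± 0.19 and ATP5IF1 0.40 ± 0.19. The lowest were UQCRH (-0.23 ± 0.15), COX8C (-0.23 ± 0.14) and COX7A1 (-0.22 ± 0.16).

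In the high imatinib lines the differences were smaller and less even between the lines. NDUFAF8 (0.67 ± 0.33), ATP5MJ (0.60 ± 0.41) and COX6A1 (0.52 ± 0.24) were highest, and COX19 had the smallest p (0.50 ± 0.19, adjusted p = 0.293 by limma). In 2 of the 10 common complex IV genes each line was above naive S and K (20.0%, against 24.3% of all genes). COX7A1 (-0.23 ± 0.16), COX6A2 (-0.21 ± 0.15) and COX4I1 (-0.20 ± 0.13) were lowest.

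In the nilotinib lines all 12 assembly factors lay above 0, with a median of 0.54. SDHAF3 was highest (0.89 ± 0.23, adjusted p = 0.0721 by limma), followed by NDUFAF7 (0.71 ± 0.45) and NDUFAF8 (0.66 ± 0.33). ATP5MK had 0.62 ± 0.17 (adjusted p = 0.0817 by limma) and COX14, which helps to start the building of complex IV around COX1, had 0.54 ± 0.16 (adjusted p = 0.0914 by limma). None of the 7 complex IV isoforms and relatives was above 0, and COX7A1 (-0.32 ± 0.16), UQCRH (-0.30 ± 0.15) and COX4I2 (-0.26 ± 0.18) were lowest. The median of these 7 was -0.17, and -0.01 with every array set to the same median. Over every array feature the median difference for nilotinib was -0.148. The nilotinib lines also had the highest scores on the technical axis, and the median of the assembly factors was 0.11 with the axis taken out.

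Between resistances, the 37 genes differed little relative to the spread between lines. By limma, 0 of the 37 passed in each of the 3 comparisons, as did 0.0% of all genes. At an unadjusted p under 0.05, 2 genes were lower in high than in low imatinib, SDHAF2 (-0.60 ± 0.22) and COX4I1 (-0.36 ± 0.13), against 3.14% of all genes in that direction. SDHAF4 (0.45 ± 0.14) and COX14 (0.47 ± 0.16) were higher in nilotinib than in low imatinib at that level, and COX7A2L was lower (-0.75 ± 0.31), against 4.25% and 2.65% of all genes. SDHAF4 was higher in nilotinib than in high imatinib (0.35 ± 0.14), against 3.79% of all genes. The larger differences were those of genes that varied between lines of 1 resistance. COX8A had -0.83 ± 0.52 for high minus low imatinib, with an interval from -2.06 to 0.40, and -0.71 ± 0.52 for nilotinib minus low imatinib. NDUFAF7 had -0.80 ± 0.45 and -0.48 ± 0.45 in the same comparisons. The medians over the 37 genes were -0.09 for high minus low imatinib, -0.05 for nilotinib minus low imatinib and 0.09 for nilotinib minus high imatinib. The sign of the second turned without nilotinib line 2 (0.038) and with every array set to the same median (0.006), and that of the third turned without high imatinib line 1 (-0.063).

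The 2 lines of a resistance often differed more than the resistances did. These comparisons have 1 line on each side, so limma on the 32 arrays measures each difference against the spread between arrays only, and a call is about the 2 cultures and not about the resistance. For the 7 genes with a range over the 8 set means above 1, which were NDUFAF7, COX8A, ATP5MJ, COX7A2L, NDUFAF8, SDHAF2 and SDHAF3, the SD over arrays within sets was between 0.12 and 0.24. NDUFAF7 had the widest range, 2.06, and COX6B2 the narrowest, 0.28.

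**Figure D3:**
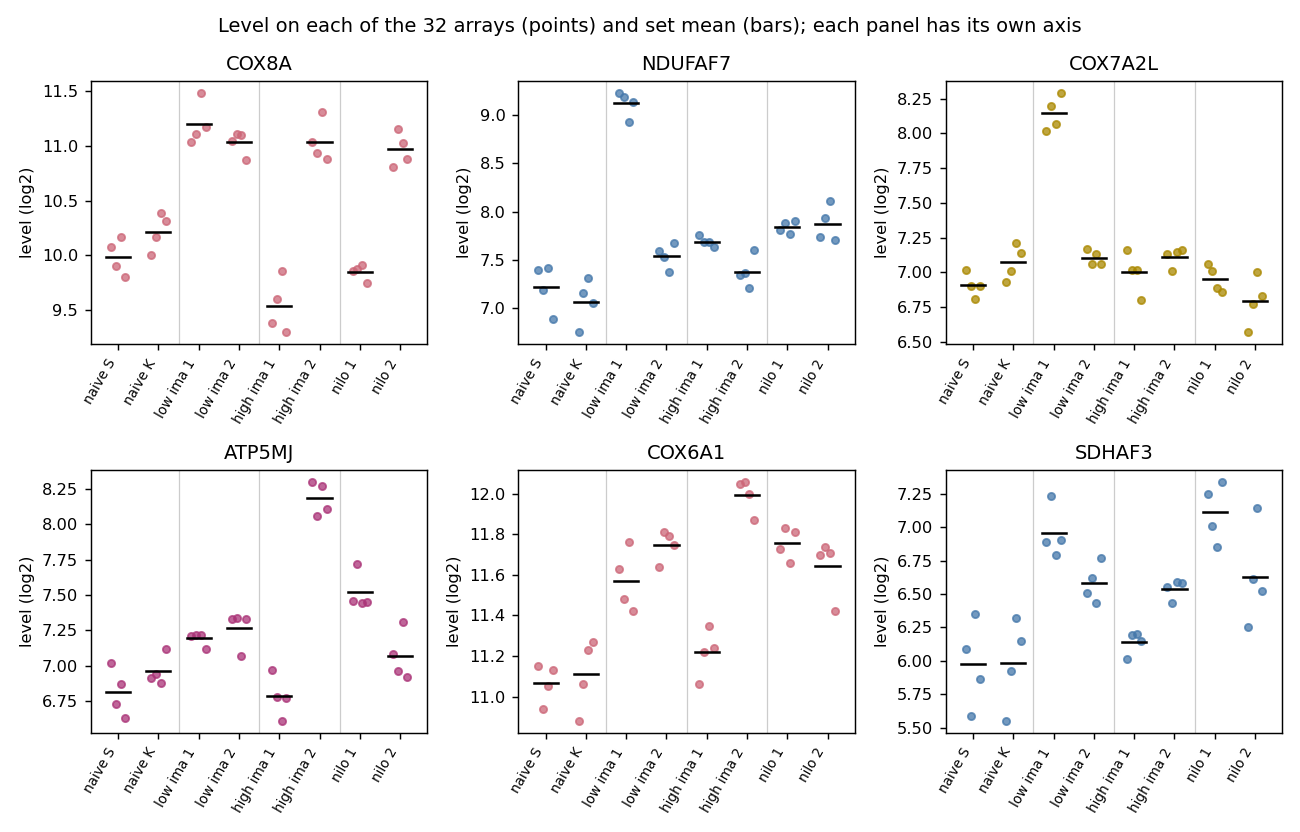
Level (log2) of 6 genes on each of the 32 arrays (points) with the mean of each set (bars), each panel on its own vertical axis. COX8A is high in both low imatinib lines, high imatinib line 2 and nilotinib line 2 and low elsewhere, while NDUFAF7 and COX7A2L stand out in low imatinib line 1 and ATP5MJ in high imatinib line 2.

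COX8A, a small membrane-spanning subunit of complex IV, had a low and a high level. It was at 9.99 ± 0.17 and 10.22 ± 0.17 in naive S and K, 9.54 ± 0.25 in high imatinib line 1 and 9.85 ± 0.07 in nilotinib line 1 (SD, n = 4 arrays). It was at 11.20 ± 0.20 and 11.03 ± 0.11 in the low imatinib lines, 11.04 ± 0.19 in high imatinib line 2 and 10.96 ± 0.15 in nilotinib line 2. No array of the first 4 sets reached any array of the last 4. In high imatinib, line 2 exceeded line 1 by 1.5 ± 0.12 (adjusted p = 4.36e-12 by limma), and in nilotinib by 1.11 ± 0.12 (adjusted p = 5.76e-09 by limma). In low imatinib the difference was -0.16 ± 0.12 (adjusted p = 0.396 by limma).

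Between the high imatinib lines, 14 of the 37 genes passed (37.8%, against 33.0% of all genes), 12 of them higher in line 2 (32.4%, against 19.8%) and 2 lower. The median over the 37 was 0.21, against 0.04 over all genes. All 10 common complex IV genes were above 0, and 5 passed: COX8A, COX5A (0.86 ± 0.10, adjusted p = 1.13e-08), COX6A1 (0.77 ± 0.10), COX7B (0.68 ± 0.09) and COX7A2 (0.45 ± 0.10). ATP5MJ was at 6.78 ± 0.15 in line 1 and 8.19 ± 0.11 in line 2, a difference of 1.4 ± 0.10 (adjusted p = 3.25e-13 by limma), and line 2 was above all other sets, which lay at or below 7.51 ± 0.14. ATP5IF1 was higher by 0.44 ± 0.13. Among the assembly factors, NDUFAF8 (1.13 ± 0.13), COX11 (0.85 ± 0.12), SDHAF2 (0.58 ± 0.11) and COX20 (0.47 ± 0.11) were higher. UQCRC1 was higher by 0.27 ± 0.10. NDUFAF7 (-0.31 ± 0.12) and UQCRC2 (-0.21 ± 0.08) were lower. COX4I1 had 0.08 ± 0.08 (adjusted p = 0.545 by limma). The 2 lines lay close together on the technical axis, and with the axis taken out the median over the 37 genes was 0.19. The mean level of the 4 erythroid markers was 7.9 in line 1 and 8.47 in line 2; its part in the difference was not tested.

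**Figure D4:**
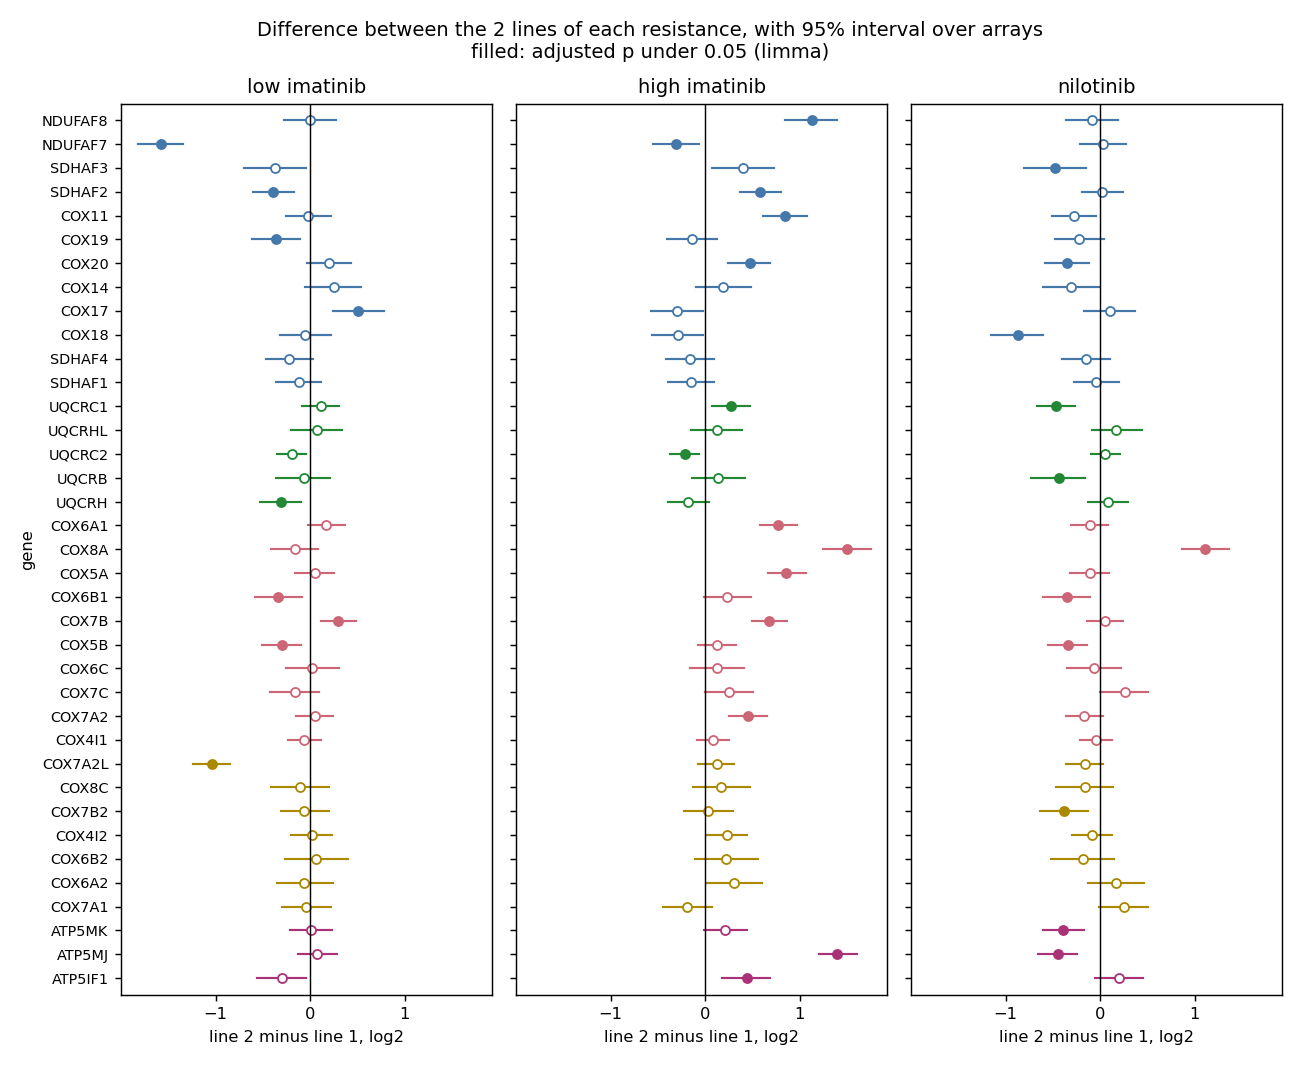
Line 2 minus line 1 on the log2 scale within low imatinib, high imatinib and nilotinib for each of the 37 genes, with 95% intervals over arrays from limma; filled points have an adjusted p under 0.05. In high imatinib 12 of the 14 filled points lie right of 0, in low imatinib 7 of 9 and in nilotinib 10 of 11 lie left of it, and COX8A is the filled point right of 0 in nilotinib.

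In nilotinib the direction was mostly the opposite. Of 11 genes that passed (29.7%, against 27.6% of all genes), 10 were lower in line 2 (27.0%, against 16.1%), and COX8A was the exception. COX18 was at 7.91 ± 0.22 in line 1 and 7.04 ± 0.14 in line 2, a difference of -0.87 ± 0.13 (adjusted p = 3.71e-06 by limma), and these were the highest and the lowest of its 8 set means. SDHAF3 (-0.48 ± 0.16), UQCRC1 (-0.47 ± 0.10), ATP5MJ (-0.45 ± 0.10), UQCRB (-0.44 ± 0.14) and ATP5MK (-0.39 ± 0.11) were also lower, with COX7B2, COX6B1, COX20 and COX5B between -0.38 and -0.34. The count fell to 7 without either of 2 arrays of line 2, fits for which the share of all genes is not given here.

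In low imatinib 9 genes passed (24.3%, against 18.7% of all genes), 7 of them lower in line 2 (18.9%, against 9.96%). NDUFAF7 was at 9.12 ± 0.13 in line 1 and 7.54 ± 0.12 in line 2, a difference of -1.58 ± 0.12 (adjusted p = 6.69e-12 by limma). COX7A2L was at 8.15 ± 0.13 in line 1 and 7.10 ± 0.05 in line 2, a difference of -1.04 ± 0.09 (adjusted p = 4.96e-10 by limma), and its other 6 set means lay between 6.79 and 7.11. SDHAF2 (-0.39 ± 0.11) and COX19 (-0.36 ± 0.13) were lower as well, and COX17 (0.51 ± 0.13) and COX7B (0.30 ± 0.09) were higher. The count was 5 with every array set to the same median, where 16.8% of all genes passed. It was also 5 without 1 array of line 1 or without either of 2 arrays of line 2. For those fits the share of all genes is not given here.

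Both NDUFAF7 and COX7A2L lie on chromosome 2, and their neighbours moved with them. In the RefSeq gene order, all 10 measured genes nearest to NDUFAF7, 5 on each side, were lower in low imatinib line 2 than in line 1 past the threshold, with a median of -1.13 and a range from -1.7 (PRKD3) to -0.4 (CDC42EP3). For COX7A2L, 9 of 10 were, with a median of -0.73; they include EML4 (-1.75), THADA (-1.80) and LRPPRC (-0.68), a binding protein of mitochondrial messenger RNAs. Over all genes 9.96% passed in that direction. In high imatinib, 7 of 10 neighbours of ATP5MJ were higher in line 2, with a median of 0.53, against 19.8% of all genes, and all of them moved less than ATP5MJ itself. Neighbours of COX8A were mixed: 4 of 10 were higher in each of high imatinib and nilotinib, with medians of 0.05 and 0.20. Over all genes, 19.8% passed in that direction in high imatinib and 1709 of 14884 in nilotinib. FERMT3, a neighbour of COX8A, was lower in high imatinib line 2 (-1.2) and higher in nilotinib line 2 (2.58). None of the 10 neighbours of COX17 in low imatinib or of SDHAF3 in nilotinib passed in the direction of the gene. For NDUFAF8 in high imatinib 2 of 10 did, against 19.8% of all genes. For COX18 in nilotinib 4 of 10 did, against 16.1% of all genes.

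**Figure D5:**
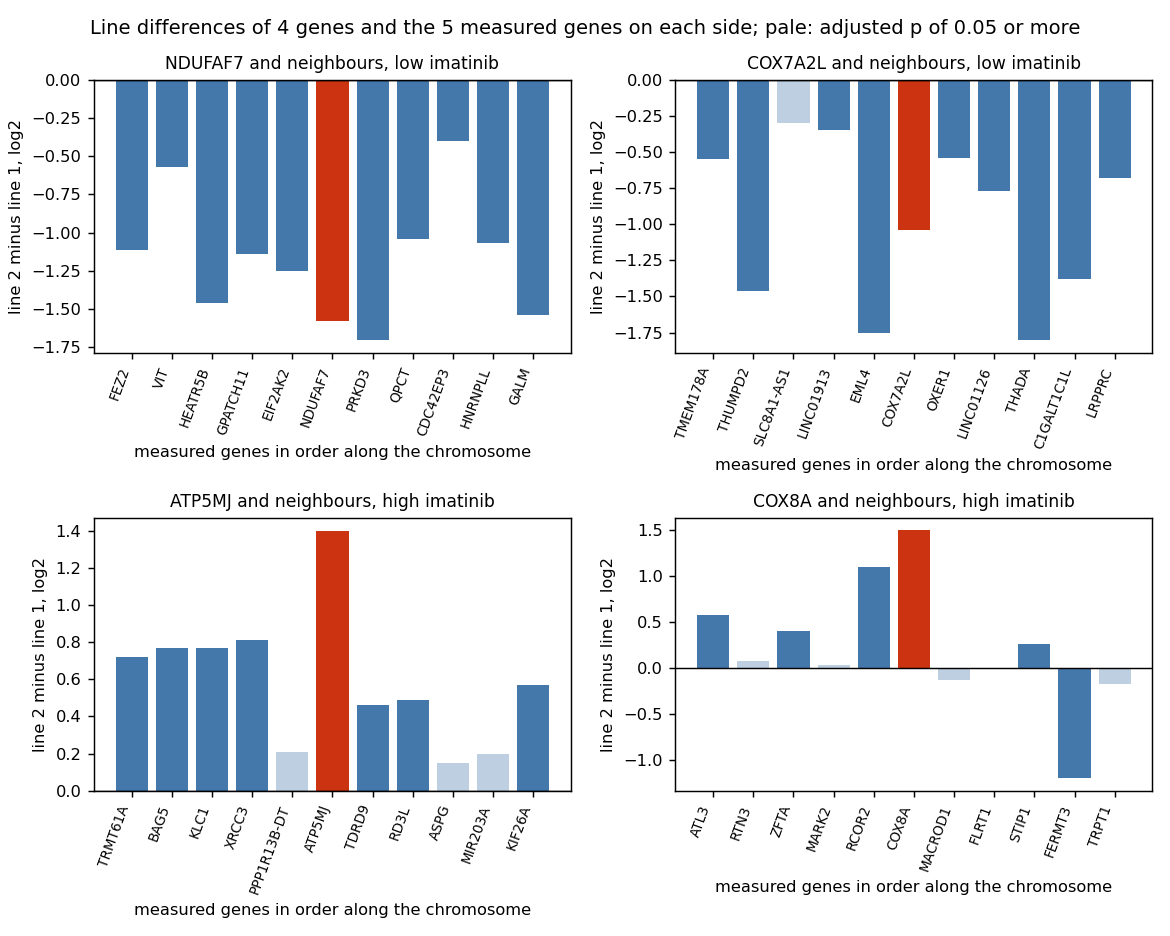
Line 2 minus line 1 (log2) for NDUFAF7, COX7A2L, ATP5MJ and COX8A (red) and the 5 measured genes on each side of them along the chromosome (blue), with bars paler where the adjusted p is 0.05 or more. All bars around NDUFAF7 and COX7A2L point down in low imatinib, those around ATP5MJ point up in high imatinib, and those around COX8A are mixed.

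The 2 naive sets differed in 6 of the 37 genes (16.2%, against 12.4% of all genes). COX5B (0.52 ± 0.10), UQCRB (0.47 ± 0.14), COX4I2 (0.45 ± 0.11), COX7A2 (0.42 ± 0.10) and COX6B1 (0.36 ± 0.12) were higher in K than in S, and COX20 was lower (-0.60 ± 0.11). COX4I2 had its highest set mean, 7.0 ± 0.12, in naive K. These differences between naive cultures are as large as many of those between resistant and naive cells.

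Levels of the common complex IV genes ran together over the 8 sets. The median Pearson correlation over their pairs was 0.65 (n = 8 sets), against 0.17 over pairs of all 37 genes and 0.00 over pairs of all genes tested. Pairs of complex V genes had a median of 0.57, those of mitochondrial import genes 0.54, those of assembly factors with other names 0.44 and those of complex III genes -0.03. The sets share the arrays' technical axis, and with that axis taken out the median was 0.44 for complex IV, 0.14 for the 37 genes, 0.12 for complex V, 0.27 for import, 0.21 for those assembly factors and 0.42 for complex III. These correlations are given as a description only.

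Other genes of the pathway were read from lists that do not overlap with the 37. Of 32 measured assembly factors with other names, 27 were above 0 in resistant against naive cells, with a median of 0.21, and 1 passed, where 3.72% of all genes did. It was SCO1, a copper chaperone that acts beside COX11 and COX17, which rose by 0.93 ± 0.12 (adjusted p = 0.032 by limma). Of 23 genes of mitochondrial import, 19 were above 0, with a median of 0.50, and TOMM34, a cytosolic factor that delivers precursors to the outer membrane, rose by 1.03 ± 0.14 (adjusted p = 0.032 by limma). TIMM22, a channel of the inner membrane, had the highest difference of that list, 1.08 ± 0.28 (adjusted p = 0.070 by limma). Of 8 regulators of mitochondrial biogenesis and DNA, 7 were above 0, with a median of 0.33. NRF1 rose by 0.46 ± 0.09 (adjusted p = 0.0494 by limma), and TWNK, the mitochondrial DNA helicase, had 0.67 ± 0.27. All 12 measured genes of pyruvate dehydrogenase and the citric acid cycle were above 0, with a median of 0.46 (DLST 0.61 ± 0.16), as were all 6 of coenzyme Q synthesis, with a median of 0.39 (COQ4 0.71 ± 0.18); none of either list passed. The 4 electron carriers and subunits outside the prefixes, among them DHODH (0.31 ± 0.28), had a median of -0.01. With the technical axis taken out these medians were -0.01, 0.15, 0.04, 0.18, 0.11 and -0.25 in the order given. Of the 4 erythroid markers, TAL1 rose by 1.12 ± 0.19 (adjusted p = 0.038 by limma) and all were above 0; CD2, LYZ and EPCAM had the largest differences of the other marker lists, -0.36 ± 0.13, -0.95 ± 0.51 and -0.85 ± 0.76. COX10-DT, a non-coding RNA divergent to COX10 that was left out of the 37, rose by 0.74 ± 0.14 (adjusted p = 0.0441 by limma). The calls of SCO1, TOMM34, NRF1, TAL1 and COX10-DT were lost by limma without low imatinib line 1, low imatinib line 2 or naive S, since 0 of all 14884 genes passed without any 1 of these, and 2 passed without naive K. With the technical axis taken out 12 of all genes passed.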

How the data were processed

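The members and gene lists were chosen with earlier results of these data known. Total RNA (100 ng per array) was measured on human whole-transcript arrays. The authors deposited 1 table of log2 signals, made per the submitters' processing notes with Transcriptome Analysis Console 4.0. The normalization was not given in the sources used here, and the log2 base was read from the range of 1.24 to 14.2. There were no scanner files, detection calls or dates to use, so batches were not checked and dim features could not be called absent. Another setting left out the dimmest 40% of genes. For all resistant lines, the median over the remaining members was then 0.269, against 0.201 over all genes left. The precision of group comparisons rests on the 8 sets, and the arrays cover technical spread only. One feature per gene, that with the highest mean over the 32 arrays, was kept. Groups were compared with limma 3.58.1 (R 4.3.3) on the 8 set means, all groups in 1 fit (4 residual degrees of freedom), and lines within a group on the 32 arrays (24 residual degrees of freedom). P-values were adjusted by Benjamini-Hochberg over 14884 genes, with a threshold of 0.05. The technical axis is the first principal component of array residuals from their set means. Named genes were the 3 highest and 3 lowest per comparison, any passing the threshold, a fixed list of core genes, and the widest gene of each pathway list; others were named after their values were seen. Line numbers are not stated to pair lines across resistances (correlations of the line differences of 0.139, 0.188 and -0.201).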

Additional observations from a re-analysis of the deposited data

Results flagged for a closer look

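In 15 of 240 sets of 4 arrays, 1 array lay far from the other 3 by Dixon's criterion for the gap over the range. Chance flags about 1 in 20 such groups. In the naive sets these were COX5A at 9.71 and SDHAF2 at 6.88 in S, and COX17 at 5.62 and SDHAF4 at 5.98 in K. In low imatinib line 1 they were COX19 at 6.35, COX7A1 at 5.38, SDHAF2 at 7.82 and UQCRH at 7.65, and in line 2 ATP5MJ at 7.07. In the high imatinib lines they were UQCRC2 at 11.36 in line 1 and COX4I1 at 10.62 in line 2. In the nilotinib lines they were ATP5MJ at 7.72 in line 1, and COX20 at 8.66, COX5B at 7.07 and COX6A1 at 11.42 in line 2.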

How the results depend on the processing

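Another fit took single arrays, with the set as a random block. Against naive cells, 12 of the 37 genes passed for low imatinib and 2 for high imatinib (18.0% and 11.3% of all genes). For nilotinib and for all resistant lines, 11 passed in each (24.8% and 24.6% of all genes). In high minus low imatinib and nilotinib minus low imatinib, 1 passed in each (2.77% and 3.7% of all genes). That fit counts arrays of 1 culture in part as replicates. It called 3660 of 14884 genes for all resistant lines, where the fit on set means called 553. Over all settings that number ran from 0 to 3660. With only the compared groups in the fit, 6 passed for low imatinib, where 13.4% of all genes did. For high imatinib 1 of all genes passed in that setting, and for nilotinib 0 did. Setting every array to the same median moved the median of all genes from -0.026 to 0.096 for all resistant lines. With that setting 3 of the 37 passed for nilotinib and 3 for all resistant lines (10.9% and 11.3% of all genes). Between the low imatinib lines 5 passed, where 16.8% of all genes did. The median differences over the 37 genes were then 0.427 for low imatinib, 0.243 for high imatinib, 0.472 for nilotinib and 0.36 for all resistant lines. With the technical axis taken out these medians were 0.061, -0.063, 0.017 and 0.018, and 12 of all genes passed for all resistant lines. Quantile normalization gave a median of 0.18 for nilotinib. The naive sets differed in 10 genes under quantile normalization and in 10 with the axis taken out (18.4% and 19.3% of all genes). With subunits only, the medians were 0.059 for high imatinib and 0.075 for nilotinib. Between the low imatinib lines 5 of the 24 subunits passed, where 18.7% of all genes did. Between the high imatinib lines 8 of the 24 passed, where 33.0% of all genes did, fewer genes being counted. The cause of the other changes was not tested.

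Each set was also left out in turn, which leaves 1 set in its group, and the effect sizes over the 37 genes are given. The medians ran from 0.223 to 0.319 for low imatinib (lowest without naive S), 0.001 to 0.235 for high imatinib (lowest without its line 2), 0.192 to 0.309 for nilotinib (lowest without naive S), -0.267 to -0.017 for high minus low imatinib, -0.143 to 0.038 for nilotinib minus low imatinib (0.006 with equal array medians) and -0.063 to 0.177 for nilotinib minus high imatinib. Leaving out each array gave 5 to 8 genes between the low imatinib lines and 7 to 12 between the nilotinib lines. The share of all genes in these fits is not given here. A change in these counts therefore cannot be told from a general change in calls. Single genes were followed only where picked for a comparison, not all 37 in each. Among those picked, 4 differences changed sign, none of them past the threshold: ATP5MJ without high imatinib line 2 (from 1.3 to -0.1 against naive cells and from 0.96 to -0.45 against low imatinib over the sets left out), NDUFAF7 for nilotinib minus low imatinib without low imatinib line 1 (from -1.27 to 0.31), and UQCRC1 for nilotinib minus high imatinib without nilotinib line 2 (from -0.46 to 0.01). Differences that were not picked turned as well. COX8A in line 1 of high imatinib (9.54) and of nilotinib (9.85) lay below both naive sets (9.99 and 10.22). Its differences against naive cells, above 0 with both lines, are therefore below 0 without line 2. With the line number as a block, 0 of the 37 genes passed in each comparison between resistances; for nilotinib minus high imatinib a crossed block, chosen after seeing the data, also gave 0. No depth or detection call was used, so no limit on dim genes is given.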
